A study of Mus musculus with 6 samples.

Results

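The CXC chemokines analysed here are 10 genes chosen by symbol, Cxcl1, Cxcl2, Cxcl3, Cxcl5, Cxcl9, Cxcl10, Cxcl11, Cxcl12, Cxcl14 and Cxcl16, out of 21720 gene symbols with a value in each library. Their mRNA was measured by RNA-seq in tumours that H22, a line of mouse hepatocellular carcinoma, had formed under the skin of wild-type female BALB/c mice of 6 to 8 weeks. The control group received 0.5% carboxymethyl cellulose sodium and the luteolin group luteolin, a plant flavonoid, at 200 mg/kg, both by gavage in 0.2 mL each day for 21 days from a tumour volume of about 50 mm3. Each group gave 3 libraries, named control replicates 1 to 3 and luteolin replicates 1 to 3. Neither the labels nor the methods tie a library to a mouse, so the p values measure the spread between these libraries. H22 is 1 transplanted line in hosts with an intact immune system, and a bulk tumour library mixes tumour, immune, stromal and neighbouring cells. Of the 10 genes, 9 had a row in the table and all 9 passed the filter on low counts. Cxcl11 had no row under that symbol and was not analysed here. The mouse reference annotation GENCODE M21 lists it as a polymorphic pseudogene, and its state in the BALB/c mice used was not examined.

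Chemokines are small secreted proteins that guide leukocytes along a concentration gradient by engaging G protein-coupled receptors. In the mouse, CXCL1, CXCL2, CXCL3 and CXCL5 attract neutrophils through CXCR2, and their genes are classical targets of NF-kappaB downstream of IL-1, TNF and IL-17. CXCL9, CXCL10 and CXCL11 are induced by interferons, IFN-γ above all for CXCL9, and attract activated T cells and NK cells through CXCR3. CXCL12 is a largely constitutive product of stromal cells that acts on CXCR4. CXCL16 is made as a membrane protein and acts on CXCR6, and CXCL14 is made constitutively by epithelia such as the epidermis.

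Stretches of 4 promoters are shown first, those in which a kappaB match was found. Of the 10 genes, 7 had an entry in the RefSeq promoter table of the build GRCm38.p6. The 250 bases before each start were searched on both strands for 3 motifs. These were the kappaB site, GGGA and TTCC with any 2 bases between them, the interferon-stimulated response element, 2 copies of GAAA with any 2 bases between them, and the gamma-activated sequence TTCNNNGAA. Capitals mark the matches, and positions are counted back from the annotated start of the gene.
Cxcl1 (chr5:90891115-90891214, plus strand, 100 bases from -130): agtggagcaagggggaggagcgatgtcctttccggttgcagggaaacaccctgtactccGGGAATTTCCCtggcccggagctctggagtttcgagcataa
Cxcl2 (chr5:90903769-90903868, plus strand, 100 bases from -130): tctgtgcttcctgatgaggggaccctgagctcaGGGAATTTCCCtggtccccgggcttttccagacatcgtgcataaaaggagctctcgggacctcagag
Cxcl3 (chr5:90785971-90786070, plus strand, 100 bases from -130): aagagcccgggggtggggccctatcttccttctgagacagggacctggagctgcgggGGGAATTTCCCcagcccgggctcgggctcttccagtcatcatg
Cxcl10 (chr5:92349020-92349119, minus strand, 100 bases from -230): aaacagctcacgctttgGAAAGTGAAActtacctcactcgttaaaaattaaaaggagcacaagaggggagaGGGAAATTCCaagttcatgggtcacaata

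Cxcl1, Cxcl2 and Cxcl3 each held the same run, GGGAATTTCCC, in which a match on the plus strand and a match on the minus strand overlap. Cxcl10 held GAAAGTGAAA at -213 and GGGAAATTCC at -159. Of all 32851 promoters in the table, 1.21% held the kappaB letters, 2.98% the interferon-stimulated response element and 7.02% the gamma-activated sequence in the same window. The promoter of Cxcl14 held GAAACAGAAA at -172 and TTCTGAGAA at -191, and those of Cxcl9 and Cxcl12 held none of the 3. These matches are letters in a window, and binding was not measured. The coordinates come from the RefSeq table and not from the deposited values.

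Total counts ranged from 61081637 to 80442954 per library. Luteolin replicate 2 stood apart. Its summed level of 11 keratinocyte genes was 9680 CPM (counts per 1000000 of the library size after TMM normalization), against 424 in luteolin replicate 1, 20.5 in luteolin replicate 3 and 13.9 to 18.3 in the controls, where 8 of these genes lay at or under 3 counts in every library. Its adipocyte list was also the highest at 355 CPM. The label of hepatocellular carcinoma was checked with 11 hepatocyte and hepatoma genes. Krt18 lay between 193 and 266 CPM and Afp between 32.7 and 66.7 in all libraries, whereas the hepatocyte factor Hnf4a never exceeded 0.327 CPM. Krt8 lay between 0.79 and 3.54 CPM. Alb varied between libraries, with 3.06, 60.3 and 0.868 CPM in control replicates 1 to 3. In luteolin replicates 1 to 3 it had 132.5, 26.03 and 31.92 CPM. Serpina1a and Fgb were likewise highest in luteolin replicate 1 and, among the controls, in control replicate 2. Values without luteolin replicate 2 are given beside the results that it changed most.

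By the study's rule, a log2 fold change beyond 1 in either direction together with p under 0.05 before adjustment (edgeR, quasi-likelihood), 6 of the 9 chemokine genes were higher in the luteolin group and 0 were lower. All 9 log2 fold changes were above 0. Of the 14963 genes tested, 11.3% were higher and 1.52% lower by this rule. At a Benjamini-Hochberg adjusted p under 0.05, which 1.34% of all genes reached in the higher and 0.187% in the lower direction, 2 of the 9 were higher, Cxcl2 and Cxcl16, and 0 lower. Without any 1 control library or without luteolin replicate 1 this count was 0, while 6 of the 9 still passed the first rule. For 7 of the 9 genes every luteolin library lay above every control library, as did 15.9% of all genes tested, and for 0 genes every luteolin library lay below, against 12.8% of all genes. The median log2 fold change was 1.56 over the 9 genes and -0.01 over all genes tested. Here "rose" means past the study's rule, SE is the standard error of the log2 fold change, and adjusted p values were computed over all genes by the Benjamini-Hochberg method in edgeR unless another tool is named. In bulk tumours, more cells of a type and more RNA per cell cannot be told apart.

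**Figure D1:**
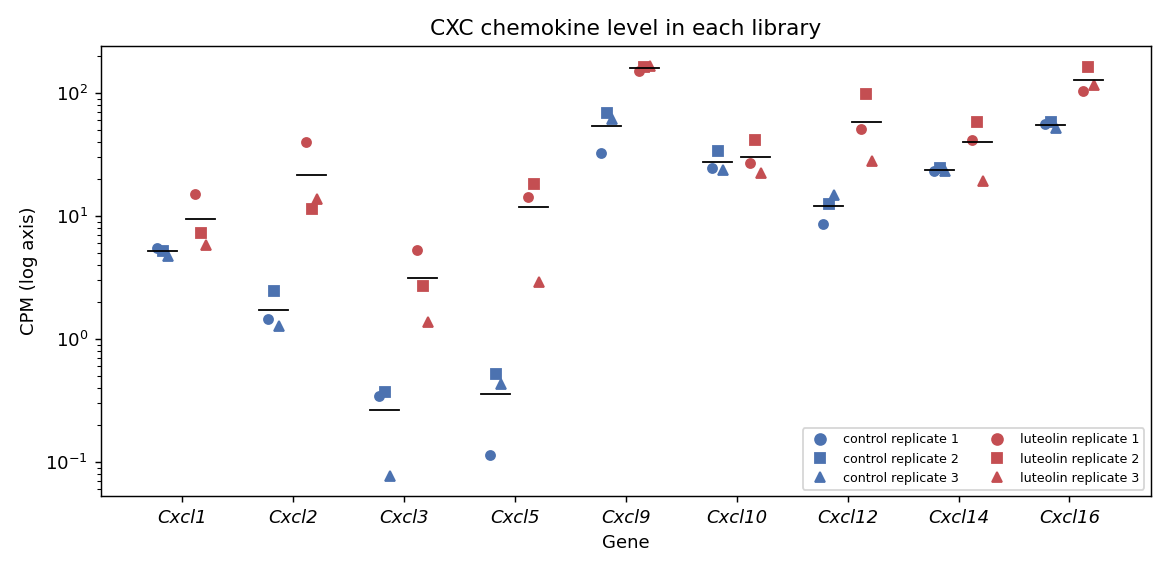
CPM (log axis) of the 9 CXC chemokine genes in each of 6 libraries, with blue symbols for the control group, red symbols for the luteolin group, the symbol shape for the replicate number and a black line for each group mean (n = 3). The red symbols of Cxcl2, Cxcl3 and Cxcl5 lie well above the blue ones, from 11.4 to 39.7 CPM against 1.27 to 2.44 for Cxcl2, while those of Cxcl10 and Cxcl14 overlap them.

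To examine the neutrophil-attracting arm, the 4 CXCR2 ligands were described first. Of these, 3 rose and Cxcl1 did not pass. Cxcl2, a chemokine that macrophages and neutrophils make on activation, had 1.46, 2.44 and 1.27 CPM in control replicates 1, 2 and 3 and 39.7, 11.4 and 13.7 CPM in luteolin replicates 1, 2 and 3. The lowest luteolin library thus exceeded the highest control library, and luteolin replicate 1 stood above the other two. The group means were 21.6 ± 15.7 and 1.72 ± 0.628 CPM (SD, n = 3 each), and the log2 fold change was 3.63 (SE 0.59, edgeR adjusted p = 0.0437). This corresponds to a 12.3-fold difference. Without luteolin replicate 1 the log2 fold change was 2.85 (edgeR adjusted p = 0.124) and without luteolin replicate 2 it was 3.95 (edgeR adjusted p = 0.0274). In luteolin replicate 3 Cxcl2 was at 13.7 CPM and Cxcl5 at 2.91 CPM. The keratinocyte sum of this library lay near the controls, but its make-up differed. Krt5 and Krt14 had 303 and 277 counts in luteolin replicate 3, more in the other luteolin libraries and 0 in every control library. Ivl, of the same list, had 4.397 CPM in luteolin replicate 3 against 9.313 to 13.69 in the controls. Luteolin replicate 3 was thus not free of keratinocyte transcripts that the controls lacked. The part of skin in the values of these ligands was not tested.

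Cxcl5, an epithelial and stromal CXCR2 ligand, had the highest log2 fold change of the 9 genes. It had 8, 34 and 28 counts in control replicates 1 to 3 and 884, 1536 and 186 counts in luteolin replicates 1 to 3, which correspond to 0.115, 0.525 and 0.434 CPM and to 14.4, 18.4 and 2.91 CPM. The groups did not overlap, and luteolin replicate 3 lay far below the other two. On the log2 scale the fold change was 4.95 (SE 0.90, edgeR adjusted p = 0.0521), and 4.51 without luteolin replicate 2. Control values of this gene rest on few counts, which limits the precision of the fold.

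Cxcl3, a close relative of Cxcl2, had the lowest level of the 4 in every luteolin library. Its counts were 24, 24 and 5 in the control libraries and 326, 227 and 88 in luteolin replicates 1, 2 and 3. In CPM these were 0.343, 0.371 and 0.0775 against 5.32, 2.72 and 1.38, again with luteolin replicate 1 highest and no overlap. The log2 fold change was 3.43 (SE 0.81, edgeR adjusted p = 0.0845), and 2.82 without luteolin replicate 1. Transcripts of Cxcl2 and Cxcl3 share a run of 157 identical bases, longer than a read of the 150-base paired-end mode, so reads could have been split between them. Transcripts of Cxcl1 share at most 23 bases in a row with either of them.

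Cxcl1, the other early neutrophil attractant, was the most abundant CXCR2 ligand of the control tumours. It had 5.51, 5.24 and 4.76 CPM in the control libraries and 15.3, 7.25 and 5.79 CPM in luteolin replicates 1, 2 and 3. All luteolin libraries lay above all controls, but replicate 3 only narrowly. The log2 fold change of 0.86 (SE 0.41) missed the threshold, with an edgeR adjusted p of 0.298. It was 1.04 without luteolin replicate 2 and 1.09 without luteolin replicate 3, both past the study's threshold, and 0.33 without luteolin replicate 1.

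The make-up of the CXCR2 ligands differed between the groups. Per kb of transcript, Cxcl1 accounted for 65.5% to 77.0% of the summed level of the 4 ligands in the control libraries and for 23.6% to 28.0% in the luteolin libraries. Cxcl2 accounted for 17.5% to 26.2% and 31.9% to 57.2%, and Cxcl5 for 0.968% to 4.25% and 8.53% to 36.2%. Cxcl2 was the leading ligand in luteolin replicates 1 and 3, and Cxcl5 in luteolin replicate 2. The ratio of Cxcl2 to Cxcl1 counts was 0.265, 0.466 and 0.267 in control replicates 1 to 3 and 2.60, 1.57 and 2.37 in luteolin replicates 1 to 3. It was 6.65-fold higher in the luteolin group (exact two-sided permutation test, p = 0.1, the smallest that 3 libraries against 3 allow).

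For the interferon-induced arm, the 2 measured CXCR3 ligands behaved differently. Cxcl9, which is induced mainly by IFN-γ, had 32.4, 68.9 and 61.5 CPM in control replicates 1, 2 and 3 and 151, 163 and 165 CPM in luteolin replicates 1, 2 and 3. The luteolin libraries lay close together and above all controls, among which replicate 1 was lowest. The means were 159.5 ± 7.77 and 54.2 ± 19.3 CPM (SD, n = 3 each). Cxcl9 rose with a log2 fold change of 1.56 (SE 0.28, edgeR adjusted p = 0.0531), which lay between 1.26 and 1.75 when single libraries were left out.

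Cxcl10, which type I interferons and TNF also induce, had 24.5, 34.0 and 23.8 CPM in control replicates 1 to 3 and 26.8, 41.2 and 22.6 CPM in luteolin replicates 1 to 3. The groups overlapped, and luteolin replicate 3 was the lowest of the 6 libraries. On the log2 scale the fold change was 0.14 (SE 0.28, edgeR adjusted p = 0.836). It was -0.13 without luteolin replicate 2, so its direction rested on that library. Cxcl10 overlaps Art3 on the opposite strand by 133 exonic bases, and the strand setting of the counting is not given in the sources used here. Art3 itself had 32 to 104 counts in the control libraries and 149 to 398 in the luteolin libraries, far fewer than Cxcl10 with 1444 counts or more.

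The relation between the pair was examined within each library, where depth cancels. Cxcl9 had 1.32, 2.02 and 2.58 times the counts of Cxcl10 in control replicates 1 to 3 and 5.62, 3.96 and 7.29 times in luteolin replicates 1 to 3. All luteolin ratios exceeded all control ratios, and the mean was 2.87-fold higher (exact two-sided permutation test, p = 0.1, the smallest value possible here). The 2 ratios tested in this way were chosen after the values of the genes had been seen.

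**Figure D2:**
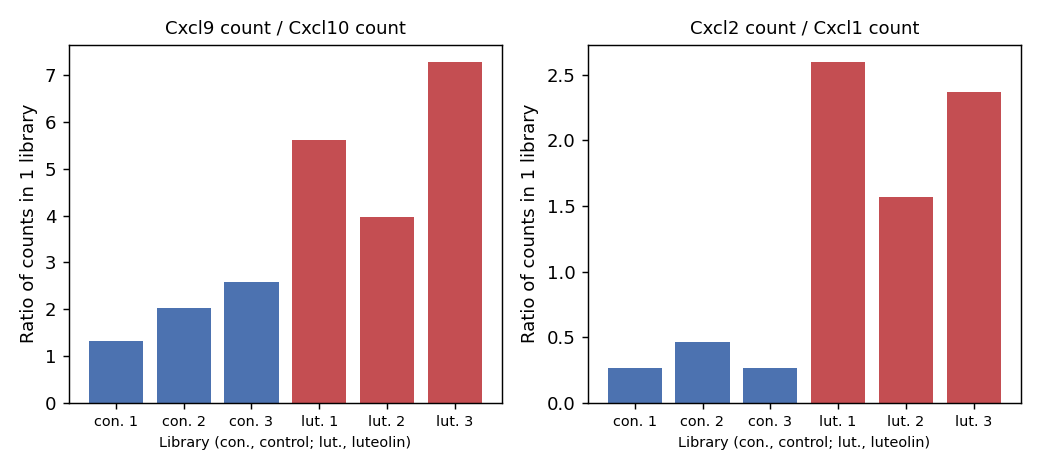
Ratio of Cxcl9 to Cxcl10 counts (left) and of Cxcl2 to Cxcl1 counts (right), 1 bar per library on a linear axis from 0, blue for control and red for luteolin. The bars run from 1.32 to 2.58 in the controls and from 3.96 to 7.29 in the luteolin libraries on the left, and from 0.265 to 0.466 and 1.57 to 2.60 on the right.

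Among the remaining ligands, Cxcl16 and Cxcl12 rose and Cxcl14 did not pass. Cxcl16, the membrane-bound ligand of CXCR6 on activated T cells, had 56.5, 57.8 and 51.7 CPM in the control libraries and 104.5, 161 and 117 CPM in luteolin replicates 1, 2 and 3. The controls lay within a narrow band and every luteolin library was above it. The log2 fold change was 1.20 (SE 0.20, edgeR adjusted p = 0.0437), with the smallest SE of the 9 genes, and it was 1.02 without luteolin replicate 2. Cxcl16 shares 552 exonic bases with Zmynd15 on the opposite strand. Zmynd15 had 829 to 1450 counts in the control libraries and 1131 to 3717 in the luteolin libraries, against 3336 to 3948 and 6403 to 13483 for Cxcl16.

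Cxcl12, the stromal ligand of CXCR4, had 8.67, 12.6 and 14.8 CPM in the control libraries and 50.8, 97.4 and 27.8 CPM in luteolin replicates 1, 2 and 3. The groups did not overlap, and luteolin replicate 2 was highest. On the log2 scale the fold change was 2.28 (SE 0.47, edgeR adjusted p = 0.0696), and 1.72 without luteolin replicate 2. The summed level of 9 fibroblast genes, among them Col1a1, Col3a1 and Dcn, had the same order of the luteolin libraries, with 4189, 5198 and 2139 CPM in replicates 1, 2 and 3 against 1458 to 1630 in the controls. This order was not particular to fibroblast genes, since the keratinocyte, endothelial, adipocyte and skeletal muscle sums had it too. The endothelial sums, for example, were 169.9, 268.4 and 104.7 CPM in luteolin replicates 1, 2 and 3. The part of fibroblast content in the Cxcl12 result was not tested.

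Cxcl14, the epithelial chemokine, had 23.1, 24.6 and 23.3 CPM in the control libraries, the narrowest spread of the 9 genes relative to the mean, and 41.7, 57.9 and 19.4 CPM in luteolin replicates 1, 2 and 3. Luteolin replicate 3 lay below all controls and the other two above them, so the groups overlapped. The log2 fold change was 0.74 (SE 0.37, edgeR adjusted p = 0.315). It was 0.39 without luteolin replicate 2 and 1.02 without luteolin replicate 3. The 3 luteolin libraries had the same order for Cxcl14 as for the keratinocyte list, which summed to 424, 9680 and 20.5 CPM. This order was not particular to that list. The fibroblast, endothelial, adipocyte and skeletal muscle sums and Cxcl12 had it too. The part of skin in the Cxcl14 values was not tested.

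**Figure D3:**
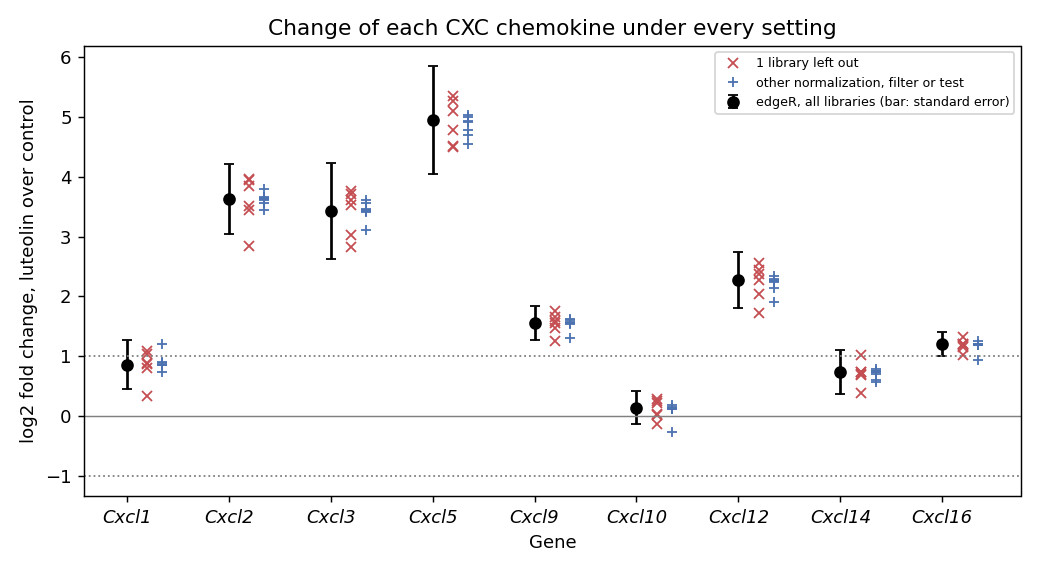
Log2 fold change of the luteolin over the control group for the 9 genes, with black points and standard error bars for the edgeR fit to 6 libraries, red crosses for fits with 1 library left out and blue plus signs for other normalizations, filters and tests. Dotted lines mark a log2 fold change of 1 in either direction. Cxcl2, Cxcl3 and Cxcl5 stay above 2.8 in each fit that tested them, and Cxcl10 lies on both sides of 0.

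The order of the genes was compared within libraries as CPM per kb of the longest principal coding transcript. In the control group the highest means were Cxcl10 with 25.1 ± 5.22 CPM per kb, Cxcl16 with 20.5 ± 1.19 and Cxcl9 with 18.8 ± 6.69 (SD, n = 3). Cxcl10 was first in each control library, while Cxcl16 and Cxcl9 changed places between libraries. Cxcl14 followed with 12.9 ± 0.430, then Cxcl1 with 5.42 ± 0.397 and Cxcl12 with 3.84 ± 0.993 CPM per kb. Cxcl2, Cxcl3 and Cxcl5 were lowest with 1.55 ± 0.566, 0.260 ± 0.159 and 0.227 ± 0.137, and the latter pair could not be separated. In the luteolin group Cxcl9 with 55.2 ± 2.69 and Cxcl16 with 47.2 ± 11.1 led. Cxcl9 was first in luteolin replicates 1 and 3 and Cxcl16 in luteolin replicate 2. Cxcl10 with 27.6 ± 8.91, Cxcl14 with 21.7 ± 10.6, Cxcl2 with 19.5 ± 14.1 and Cxcl12 with 18.7 ± 11.3 CPM per kb overlapped one another between libraries. Within each luteolin library Cxcl10 lay above Cxcl14 and Cxcl14 above Cxcl12, while the place of Cxcl2 varied. Cxcl1 with 9.90 ± 5.34, Cxcl5 with 7.56 ± 5.10 and Cxcl3 with 3.09 ± 1.98 came last. With all annotated exons as the length, Cxcl10 moved from first place in each control library to rank 3 or 4, so its rank depends on the transcript model.

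The 3 luteolin libraries were not alike. Luteolin replicate 1 had the highest value of Cxcl1, Cxcl2 and Cxcl3, luteolin replicate 2 the highest of 5 other genes and luteolin replicate 3 the highest of Cxcl9 only, whereas luteolin replicate 3 had the lowest value of 6 of the 9 genes. For 3 genes the most similar profiles over the 6 libraries were sought by the Pearson correlation of log2 CPM among 13274 genes. Such correlations in 6 libraries carry no test. Those of Cxcl2 and Cxcl9 follow the difference between the groups, whereas Cxcl14 and the genes closest to it overlapped between the groups. Closest to Cxcl2 were Etv1 (r = 0.995), Gm49339 (r = 0.994) and Mmp10, a stromelysin (r = 0.994). Mmp10 had 44, 83 and 53 counts in the control libraries and 1634, 591 and 712 in luteolin replicates 1, 2 and 3. The latter correspond to 26.7, 7.07 and 11.1 CPM, the same order as the CPM of Cxcl2, while the order of the control libraries differed. Closest to Cxcl9 were Pdcd1, the gene of PD-1 (r = 0.995), the interferon-inducible gene Nmi (r = 0.9945) and Crtam, expressed on activated CD8+ T and NK cells (r = 0.993). Closest to Cxcl14 were Cryab (r = 0.991), Ccnl2 (r = 0.989) and Nid2, a basement membrane protein gene (r = 0.985).

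The receptors were examined with a list of 8 genes, of which 7 were tested, 4 rose and 0 fell. None reached an adjusted p under 0.05 in edgeR, where 4 had an unadjusted p under 0.05, and DESeq2 called 2 of them, Cxcr2 and Cxcr4, at an adjusted p under 0.05. Cxcr2, the neutrophil receptor of Cxcl1, Cxcl2, Cxcl3 and Cxcl5, had 0.472, 0.819 and 1.12 CPM in the control libraries and 11.2, 30.9 and 4.37 CPM in luteolin replicates 1, 2 and 3. The groups did not overlap. On the log2 scale the fold change was 4.22 (SE 0.80, edgeR adjusted p = 0.0560), and 3.25 without luteolin replicate 2 (edgeR adjusted p = 0.0398). Cxcr1 was below the filter, with at most 25 counts.

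Cxcr3, the receptor of Cxcl9 and Cxcl10, did not pass the test. It had 62.2, 48.2 and 35.3 CPM in the control libraries and 34.5, 46.4 and 35.8 in luteolin replicates 1, 2 and 3, which overlapped. The log2 fold change was -0.32 (SE 0.25, edgeR adjusted p = 0.526). In the same control libraries the T-cell genes Cd3e, Cd8a and Cd4, which were named after their values had been seen, lay between 1.49 and 4.82 CPM. CPM takes no account of transcript length, so these levels are not a ratio of cells or molecules.

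Cxcr6, the receptor of Cxcl16, had 0.229, 0.510 and 2.11 CPM in the control libraries and 4.56, 2.93 and 6.17 CPM in luteolin replicates 1, 2 and 3. The lowest luteolin value was above the highest control value, and control replicate 3 stood above the other controls. On the log2 scale the fold change was 2.23 (edgeR adjusted p = 0.197), and the call was lost without control replicate 1 or 2 or luteolin replicate 1 or 3, with log2 fold changes from 1.77 to 2.23. Without control replicate 3 it was 3.52. Cxcr4, the receptor of Cxcl12, had 13.1, 15.2 and 14.5 CPM against 29.5, 36.9 and 23.7 CPM, a log2 fold change of 1.07 (edgeR adjusted p = 0.0694). It was under the fold change threshold without control replicate 1 (0.98) or luteolin replicate 2 (0.91). Ackr3, a scavenging receptor of Cxcl12, had 44.0 to 58.4 CPM in the control libraries and 57.9 to 81.3 in the luteolin libraries, a log2 fold change of 0.41 that did not pass. Ackr1, which binds many chemokines on venules and erythrocytes, rose with 0.687, 0.741 and 0.434 against 1.34, 5.47 and 0.923 CPM and a log2 fold change of 2.0 (edgeR adjusted p = 0.201). This was 0.85 without luteolin replicate 2, and the call was also lost without any 1 control library (1.81 to 2.09). Cxcr5, the receptor of Cxcl13, had 0.279 to 0.927 CPM in the control libraries and 0.310 to 2.30 in the luteolin libraries, with an overlap, and the direction of its log2 fold change of 0.75 turned without luteolin replicate 2 (-0.53).

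**Figure D4:**
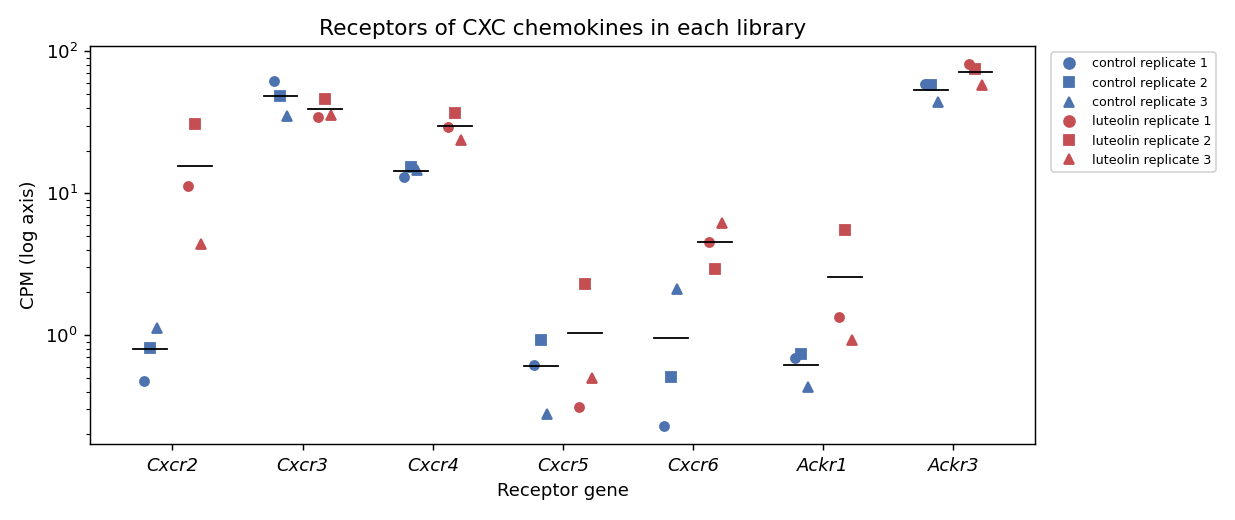
CPM (log axis) of the 7 tested receptor genes in each library, with blue for control, red for luteolin, the symbol shape for the replicate number and a black line for each group mean (n = 3). Cxcr2 lies at 0.472 to 1.12 CPM in the controls and at 4.37 to 30.9 in the luteolin libraries, while Cxcr3 overlaps between the groups.

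Of 5 other CXC ligand genes, 4 were tested, and Cxcl13 and Pf4 rose. Cxcl13, which attracts B cells, had 0.529, 3.55 and 2.90 CPM in the control libraries and 16.7, 89.6 and 16.5 CPM in luteolin replicates 1, 2 and 3. Luteolin replicate 2 was far above the other two. The log2 fold change of Cxcl13 was 4.12 (edgeR adjusted p = 0.0922), 2.84 without luteolin replicate 2 and 2.68 by limma voom with weights for library quality. Pf4, a platelet and megakaryocyte chemokine, had 2.93 to 5.60 against 9.25 to 26.9 CPM and a log2 fold change of 1.85 (edgeR adjusted p = 0.104). Cxcl17, named after its values had been seen, was the only one of them with all luteolin libraries below all controls, with 22, 0 and 27 counts against 97, 69 and 135, and did not pass (log2 fold change -2.42, edgeR adjusted p = 0.305). It passed by DESeq2 (-2.55), under voom (-1.95), with values divided by 4 (-2.07) and without luteolin replicate 2 (-1.86). Ppbp overlapped between the groups, and Cxcl15 was at 0 counts in all libraries.

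The genes upstream of the CXCR2 ligands were taken from a list of 18 genes for IL-1, TNF, IL-17 and NF-kappaB. Of the 17 tested, 9 rose and 0 fell, 3 of them at an adjusted p under 0.05 in edgeR, with a median log2 fold change of 1.04. Il1b, the gene of the cytokine IL-1β, had 14.5, 16.9 and 11.1 CPM in the control libraries and 165, 122 and 57.5 in luteolin replicates 1, 2 and 3 (log2 fold change 3.02, edgeR adjusted p = 0.0331). Tnfaip3, a feedback inhibitor of NF-kappaB, rose by 1.04 on the log2 scale (edgeR adjusted p = 0.0393). Its call was lost without luteolin replicate 2, where it lay at the fold change threshold, and under voom (0.99). Il17ra, a subunit of the IL-17 receptor, rose by 2.01 on the log2 scale (edgeR adjusted p = 0.0493). Tnf rose with a log2 fold change of 2.40 (edgeR adjusted p = 0.0505). Il17a itself was not tested, with 0 CPM in all controls and in luteolin replicate 3. The most abundant gene of the list, the subunit gene Nfkb2, had 203 to 289 CPM against 263 to 290 and a log2 fold change of 0.17 that did not pass.

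The genes upstream of and parallel to Cxcl9 were taken from a list of 22 genes of the IFN-γ route. All 22 were tested, 16 rose (12 without luteolin replicate 2) and 0 fell, 6 of them at an adjusted p under 0.05 in edgeR, with a median log2 fold change of 1.30. The 4 with the smallest p were the interferon-induced GTPase genes Gbp3, Gbp5, Gbp7 and Igtp, with log2 fold changes of 1.26, 1.96, 1.25 and 1.96. Gbp5 had 10.1, 17.7 and 15.4 CPM in the control libraries and 58.8, 67.0 and 42.8 in luteolin replicates 1, 2 and 3, with no overlap. Irf1, the most abundant gene of the list and like Cxcl10 an early interferon target, had 158 to 180 CPM against 175 to 230, which overlapped, and did not pass (log2 fold change 0.27). Ifng, named after its values had been seen, rose with a log2 fold change of 3.28 (edgeR adjusted p = 0.0665).

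Proteases that trim or shed these chemokines were covered by 7 genes, of which 2 rose. Dpp4, which truncates CXCR3 ligands and CXCL12, had 0.744, 0.788 and 2.31 CPM in the control libraries and 8.47, 13.1 and 2.30 CPM in luteolin replicates 1, 2 and 3, a log2 fold change of 2.61 with overlapping groups. Mmp8 also rose with overlap (log2 fold change 2.05), a call lost without control replicate 1 or 2 or luteolin replicate 1 or 3 (1.64 to 1.86). Adam10 and Adam17, which release CXCL16 from the membrane, had log2 fold changes of 0.05 and 0.02, whose sign turned when single libraries were left out (-0.15 to 0.20 and -0.16 to 0.29). Mmp9 had 27.5 to 33.8 CPM against 46.4 to 60.8 and a log2 fold change of 0.80, under the threshold. Mmp12 had 46.4 to 275 CPM in the control libraries and 25.6 to 784 in the luteolin libraries, and did not pass unless luteolin replicate 2 was left out (log2 fold change 1.79). Ctsg, at or under 0.922 CPM, did not pass.

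The cells that respond to these ligands were followed with marker lists. The neutrophil list of 10 genes summed to 19.8 to 22.3 CPM in the control libraries and to 161, 156 and 85.8 CPM in luteolin replicates 1, 2 and 3. Of its 7 tested genes 4 rose, S100a8, S100a9, Csf3r and Trem1. The most abundant, Csf3r, the receptor of G-CSF, had 12.0 to 16.2 CPM in the control libraries and 60.5, 112 and 31.8 in luteolin replicates 1, 2 and 3. The call of Trem1 (log2 fold change 1.39) was lost without control replicate 1 or 2 or luteolin replicate 1 (1.10 to 1.34). Retnlg, also on the list, overlapped between the groups and did not pass (log2 fold change 0.43). It had 1.65 to 2.18 CPM in the control libraries and 1.86, 0.527 and 5.68 in luteolin replicates 1, 2 and 3. The granule genes Mpo, Elane, Camp and Ngp and the surface marker Ly6g were near 0 in most libraries. Ly6g lay at or under 0.556 CPM, Mpo at or under 0.626 and Elane at or under 0.250 CPM in all libraries, and Camp and Ngp were at 0 in every control library and above 1 CPM in luteolin replicate 3 alone. All 9 genes of the T-cell list rose, with a sum of 13.4 to 16.5 CPM in the controls and 47.6 to 89.4 in the luteolin libraries. Its most abundant gene, Cd4, had 2.58 to 4.82 CPM against 7.96 to 17.7. Of the NK-cell list 5 genes were tested and 4 rose, while its sum was lower, with 51.4 to 66.4 CPM against 72.6 to 98.1, because Eomes made up most of it and was lower. Eomes had 70.2 to 92.3 CPM in the control libraries and 36.1 to 51.3 in the luteolin libraries and did not pass the fold change threshold.

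Macrophages, dendritic cells, fibroblasts and endothelial cells are known sources of these ligands. The macrophage list of 8 genes summed to 966 to 1136 CPM in the control libraries and 1511 to 2267 in the luteolin libraries, and 2 of them rose, Cd68 and Cd14, against 5 without luteolin replicate 1. Its most abundant gene, C1qa, overlapped between the groups. The dendritic cell list of 8 genes summed to 132 to 147 CPM against 205 to 314, and 6 rose. This count was 4 under voom, without any 1 control library and without luteolin replicate 2. Among the 6 was Itgax, the most abundant, with 86.1 to 90.4 CPM against 134 to 252. Its log2 fold change was 1.14, and 0.86, under the threshold, without luteolin replicate 3. Of 9 fibroblast genes 6 rose, and of 6 endothelial genes 3 rose, with endothelial sums of 83.9 to 105.4 CPM against 104.7 to 268 and 1 call without luteolin replicate 2. Of the 9 tested keratinocyte genes 8 rose, whereas 0 of 5 tested adipocyte genes (13.9 to 70.2 CPM against 16.8 to 355) and 0 of 6 skeletal muscle genes (392 to 954 against 205 to 1008 CPM) passed, although 4 adipocyte genes did without control replicate 3 and 2 without luteolin replicate 3. Without luteolin replicate 2, 2 skeletal muscle genes were lower past the threshold, against 1 by DESeq2 and 3 under voom, and without luteolin replicate 3, 1 was higher. Of 9 tested hepatocyte and hepatoma genes 1 rose, Gpc3, against 6 without control replicate 2. Which of these cells contributed the chemokine mRNA was not tested.

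**Figure D5:**
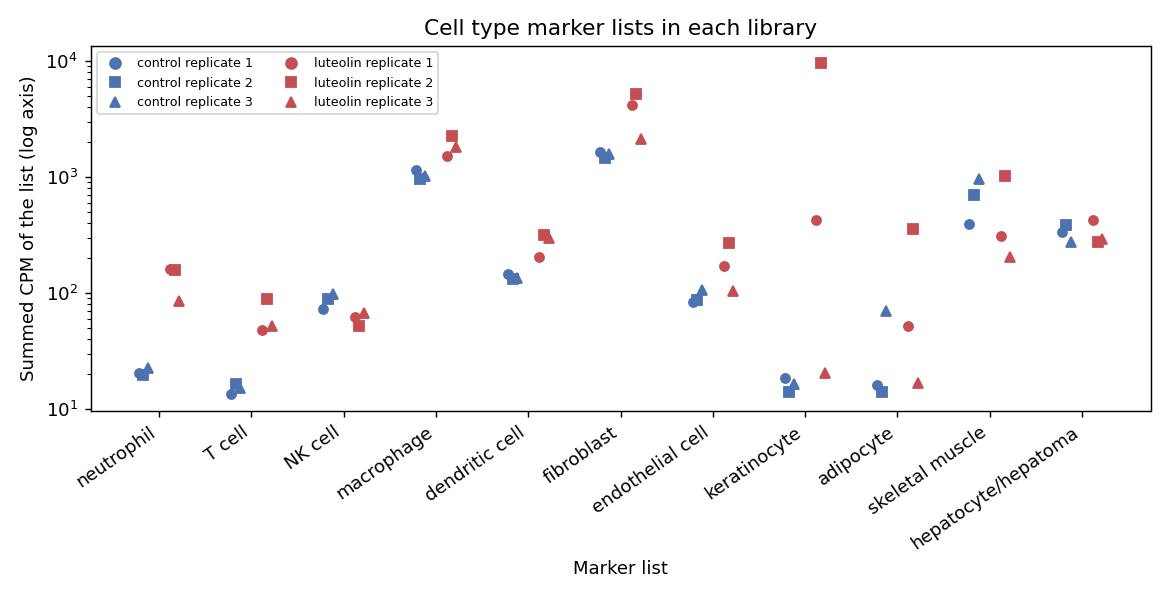
Summed CPM (log axis) of the genes of 11 cell type marker lists in each library, with blue for control, red for luteolin and the symbol shape for the replicate number. The neutrophil, T-cell, macrophage, dendritic cell and fibroblast sums of all 3 luteolin libraries lie above those of the controls, and the keratinocyte sum reaches 9680 CPM in luteolin replicate 2 alone.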

How the data were processed

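Estimated counts per gene symbol and library, as deposited by the authors without scaling between libraries, were the input. The submitters' processing notes name bcl2fastq, HISAT2, StringTie and DESeq2 and the builds mm39 and rn6, with no role given, and the counting options, strand setting and annotation are not given in the sources used here. Of the values from 1 to 40, 42.7% to 45.7% per library were multiples of 4, so that 1 unit need not be 1 read and low values are less precise than counting error implies. All 6 libraries and 0 further columns were used. The methods name a TruSeq kit and the labels a SMARTer kit. Counts were compared in R 4.3.3 with edgeR 4.0.16 (filterByExpr, TMM, quasi-likelihood test, no covariates, prior count of 2). All p values are two-sided, with Benjamini-Hochberg adjustment over 14963 genes. The members and gene lists were chosen with earlier results of these data known. Genes named are the members, the 3 profiles closest to Cxcl2, Cxcl9 and Cxcl14 (mean of at least 1 CPM), all receptors and proteases, the most abundant genes of each list and, in the 2 lists of inducers, the 4 with the smallest p. Genes outside this rule were named after their values were seen. Lists are described by counts and medians with no test. Transcript lengths came from GENCODE M21 (GRCm38), whose build may differ from that of the counts, and sequences from RefSeq. A count of 0 allows up to 3 counts per library, counting error only. Alternatives were DESeq2 1.42.0, limma 3.58.1 (voom with quality weights), RLE and upper-quartile factors, no filter, a minimum of 10 counts in every library, values divided by 4, single libraries left out and the replicate number as a block. A gene of the interferon list is not reported here by name.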

Additional observations from a re-analysis of the deposited data

How the results depend on the processing

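The number of chemokine genes past the study's threshold was 6 under DESeq2, voom, RLE, upper-quartile, no filter, the block and values divided by 4, and 4 with at least 10 counts in every library, where Cxcl3 and Cxcl5 were no longer tested. It was 6 to 8 with 1 library left out. Under voom the 6 held Cxcl1 in place of Cxcl16, whose log2 fold change was then 0.94. The number at an adjusted p under 0.05, 2 in edgeR, was 6 under DESeq2 and voom, 4 with upper-quartile factors, 4 with at least 10 counts in every library and 4 with values divided by 4. It ranged from 0 to 2 with 1 library left out, being 0 without any control library or luteolin replicate 1, where 6 genes still had an unadjusted p under 0.05 in edgeR. Over all genes, the adjusted calls were 200 higher and 28 lower in edgeR, 1421 and 424 under DESeq2, 1886 and 1311 under voom, 345 and 47 with at least 10 counts in every library, 327 and 46 with values divided by 4, 34 and 1 with the block and 0 and 0 without any control library or luteolin replicate 1. The receptor count of 4 was 2 under voom and 1 to 4 with 1 library left out. Cxcl10 reversed to -0.26 under voom and to -0.13 without luteolin replicate 2, and Cxcr5 to -1.01 and -0.53, with ranges of -0.13 to 0.29 and -0.53 to 1.17 over single libraries left out. The log2 fold changes of Adam10 and Adam17 ranged from -0.15 to 0.20 and from -0.16 to 0.29 in the same way, and that of Adam17 was 0.00 with the block. None of these was called. With voom, which weighted libraries by quality, 1 of 9 keratinocyte genes rose instead of 8. The causes were not tested.

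With the replicate number as a block, 0 chemokine genes had an adjusted p under 0.05 in edgeR and 6 an unadjusted one. Same-numbered libraries deviated from their group means with correlations of -0.196, -0.092 and 0.063, against -0.124 to 0.2 for the other pairs. These values show no pairing by number. They cannot exclude it, because deviations from a mean of 3 libraries depend on one another. Low counts, as for Cxcl3 and Cxcl5 in the controls, limit the precision of their fold changes.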
